A study of Mus musculus with 9 samples.

Results

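The genes described here are 43 genes of DNA replication and mitosis. They were taken by gene symbol from a table of 16921 genes measured by ribosome profiling (RiboSeq), which counts the ribosome-protected fragments, or footprints, that map to each gene. All 43 were in the table, and all 43 were among the 10103 genes kept by a filter on low values (a mean of at least 10 over the libraries).

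The cells were immortalized mouse bone marrow-derived macrophages (BMDMs) of TTP-deficient mice, so that all groups lacked endogenous TTP (Zfp36, an RNA-binding protein that recognizes AU-rich elements and guides mRNAs to decay). They were immortalized with the oncogenes myc and Ras and transduced with a retroviral vector from which doxycycline induces GFP alone (GFP), GFP fused to wild-type TTP (GFP-TTP) or GFP fused to a TTP mutant in which both serines phosphorylated by the kinase MK2 are replaced by alanine (GFP-TTP-AA). Every group received doxycycline (1 μg/ml) for 6 h and LPS, a bacterial activator of macrophages, (1 μg/ml) for 1 h, and each group had 3 libraries, numbered 1 to 3. Each construct was in 1 separately transduced line, so that the line and the construct cannot be told apart, and the vector carried only the coding sequence of TTP. Nothing states that the 3 libraries of a line came from independent transductions.

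A dividing cell licenses its replication origins by loading the Mcm2-7 helicase, copies its DNA with polymerases that are held on the template by the clamp Pcna, and then separates the chromosomes on a spindle under the control of Cdk1 and the Aurora and Polo kinases. Most of these genes are periodic. E2F factors control many replication genes in late G1 and S phase, and many mitotic genes carry a CHR element and CCAAT boxes in their promoters, through which they are repressed in resting cells and activated in G2 and M phase. Primary macrophages divide little after activation, whereas immortalized lines such as these cycle continuously.

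To show these elements, promoters of 6 genes are printed from 250 bases before to 50 bases after the start of the RefSeq transcript (GRCm38.p6), 5′ to 3′ on the strand of the gene. Top2a, Mki67, Aurka and Bub1 were lower in GFP-TTP-AA than in GFP-TTP cells, whereas the helicase subunit Mcm6 and the kinase Cdk1 did not pass the test in any comparison. Capitals mark matches on either strand to the CHR element (TTTGAA or TTCGAA), the CCAAT box (CCAAT) and the E2F element (TTTCCCGC, TTTCGCGC, TTTGCCGC or TTTGGCGC). A match is a description of the letters and not of a bound site.
Top2a, chr11:99024140-99024439, minus strand: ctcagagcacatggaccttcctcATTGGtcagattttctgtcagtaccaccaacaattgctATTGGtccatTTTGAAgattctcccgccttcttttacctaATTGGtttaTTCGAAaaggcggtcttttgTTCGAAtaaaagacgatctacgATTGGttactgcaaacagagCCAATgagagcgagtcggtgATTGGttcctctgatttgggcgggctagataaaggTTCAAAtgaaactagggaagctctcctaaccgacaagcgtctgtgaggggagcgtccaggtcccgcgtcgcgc
Mki67, chr7:135716330-135716629, minus strand: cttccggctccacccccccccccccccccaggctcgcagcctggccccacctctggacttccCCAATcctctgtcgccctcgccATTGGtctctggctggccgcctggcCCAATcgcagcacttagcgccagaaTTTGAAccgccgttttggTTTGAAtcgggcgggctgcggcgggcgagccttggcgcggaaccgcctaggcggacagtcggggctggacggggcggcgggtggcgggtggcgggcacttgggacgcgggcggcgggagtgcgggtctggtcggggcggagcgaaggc
Aurka, chr2:172370521-172370820, minus strand: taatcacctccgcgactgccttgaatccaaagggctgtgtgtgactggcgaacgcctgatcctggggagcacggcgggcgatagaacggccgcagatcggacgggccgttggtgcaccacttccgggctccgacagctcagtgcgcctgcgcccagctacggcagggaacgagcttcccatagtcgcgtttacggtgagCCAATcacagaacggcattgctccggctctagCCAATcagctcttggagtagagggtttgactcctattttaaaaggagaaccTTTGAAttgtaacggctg
Bub1, chr2:127831810-127832109, minus strand: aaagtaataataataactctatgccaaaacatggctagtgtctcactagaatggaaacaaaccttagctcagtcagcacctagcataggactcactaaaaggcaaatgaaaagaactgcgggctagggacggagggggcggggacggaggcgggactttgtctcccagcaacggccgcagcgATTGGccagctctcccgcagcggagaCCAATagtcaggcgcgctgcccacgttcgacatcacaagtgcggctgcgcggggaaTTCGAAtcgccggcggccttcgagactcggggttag
Mcm6, chr1:128359656-128359955, minus strand: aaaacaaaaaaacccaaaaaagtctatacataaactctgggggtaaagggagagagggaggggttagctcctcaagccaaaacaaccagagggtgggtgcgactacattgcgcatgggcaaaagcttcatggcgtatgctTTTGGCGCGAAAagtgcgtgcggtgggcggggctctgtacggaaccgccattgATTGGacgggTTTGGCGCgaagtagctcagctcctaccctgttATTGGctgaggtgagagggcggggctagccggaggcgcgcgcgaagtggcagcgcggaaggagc
Cdk1, chr10:69352863-69353162, minus strand: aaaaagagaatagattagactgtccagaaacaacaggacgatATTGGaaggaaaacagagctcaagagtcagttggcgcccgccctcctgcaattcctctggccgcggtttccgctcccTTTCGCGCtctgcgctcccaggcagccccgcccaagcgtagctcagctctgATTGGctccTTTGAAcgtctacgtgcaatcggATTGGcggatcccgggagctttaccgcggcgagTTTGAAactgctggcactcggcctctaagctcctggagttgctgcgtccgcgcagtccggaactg

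The promoter of Top2a held 4 matches to the CHR element and 6 CCAAT boxes, and that of Mki67 held 2 and 3. Aurka and Bub1 each had 1 CHR match and 2 CCAAT boxes. Mcm6 had 3 E2F matches, of which a pair overlapped, 2 CCAAT boxes and no CHR match. Cdk1 had all 3 kinds, with 1 E2F match, 2 CHR matches and 3 CCAAT boxes. Most, but not all, of the genes that fell and had a window held a CHR match. Of the 7 of them with a window, 5 held a match, Bub1b being the other one, whereas Cenpe (1 CCAAT box) and Lig1 (1 E2F match, 3 windows) had 0 CHR matches. RefSeq windows were at hand for 34 of the 43 genes, which is under the share of 80% set for a comparison of the whole group. The counts below therefore describe these 34 genes and not the whole group, and no test was made. Foxm1, Tpx2, Mcm4, Ccna2, Gins1, Aurkb, Ccne2, Kif20a and Pole had none. Among the 34 genes, 10 held an E2F match (Mcm3, Mcm5, Mcm6, Mcm7, Cdc6, Cdt1, Cdk1, Cdk2, Pola1 and Lig1), 14 a CHR match and 25 a CCAAT box. Of all 32851 windows of this length, 2.26% held an E2F match, 19.2% a CHR match and 37.4% a CCAAT box. In the windows of these genes, matches of different elements overlapped 1 time.

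TTP binds AU-rich sequences such as TATTTAT in 3′UTRs. Of the 43 genes, 11 (25.6%) had at least 1 TATTTAT in the 3′UTR of their GENCODE transcript, against 27.4% of the 9971 kept genes with a coding transcript. Mad2l1 held 4 and E2f1 held 3 of them, and Mcm2, Mcm5, Cdc6, Ccne2, Cdk2, Ccna2, Ccnb1, Bub1 and Cenpe held 1 each. The first such site is shown, with TATTTAT in capitals, for the checkpoint genes Bub1 and Mad2l1 and for the kinesin Cenpe (GRCm38, strand of the gene).
Bub1, chr2:127801149-127801175, minus strand: tcatacttacTATTTATgtatgtttaa
Mad2l1, chr6:66540630-66540656, plus strand: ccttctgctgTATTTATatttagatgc
Cenpe, chr3:135273470-135273496, plus strand: aactgttaatTATTTATttttatacat
The shorter ATTTA was found in 31 of the 43 genes (72.1%) and in 65.7% of the kept genes. The 3′UTRs had a median length of 531 nt in the 43 genes and of 947 nt in the kept genes. The shares of both motifs were not adjusted for this length. In GFP-TTP-AA against GFP-TTP, the log2 fold changes had a median of -0.07 over the 11 genes with TATTTAT and of -0.23 over the other 32 genes. Among the 9971 kept genes the order was the opposite, with medians of -0.04 with TATTTAT and 0.02 without it. The differences between these medians were not tested. Of the 43 genes, those with the site lay on both sides of 0, from -0.45 for Bub1 to 0.35 for Cdk2. Bub1 and Cenpe were the 2 of these 11 that passed the test in this comparison.

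The deposited table of normalized counts gives, for each gene and library, the footprint count that the authors' DESeq2 model fitted, and not the observed count. Levels are given here as these fitted values divided by the size factor of the library. Because a group term and a replicate-number term fix each value, the order of the groups is the same at every replicate number, and the 3 values of a group show the replicate-number term and not the residual spread. Whether the values of different groups overlap follows from these terms alone and is therefore not used. The spread enters through the standard errors (SE) of the authors' tables, and p is from the Wald test on the log2 fold change over this SE, adjusted by the Benjamini-Hochberg method over all kept genes. The libraries differed in depth, with sums of fitted values from 2570292 to 12804501. The 43 genes had SEs of 0.114 to 0.207 on the log2 scale, and the fold changes are shrunken toward 0 by the model. As a check of the labels, Zfp36 had levels of 443, 436 and 500 in GFP, of 897, 882 and 1008 in GFP-TTP and of 1487, 1456 and 1671 in GFP-TTP-AA libraries. It was lowest in the line without a TTP construct, in which it was not at 0, and it was higher in GFP-TTP-AA than in GFP-TTP (log2 fold change 0.73, SE 0.25, Wald test adjusted p = 0.0395).

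The cells were checked against markers. Of 10 macrophage marker symbols, 9 were in the table and 8 had a mean of at least 10. Their levels summed to between 88293 and 106466 in GFP, 70267 and 83783 in GFP-TTP and 100187 and 121605 in GFP-TTP-AA libraries. Markers of T cells, B cells, granulocytes and progenitors, erythroid cells and fibroblasts were not in the table or were fitted at under 10, with Cd34 as the highest of them at 6.26.

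Mean levels of the 43 genes ranged from 173 for E2f1 to 3761 for Mcm6, and the whole group took 0.739% to 1.01% of all fitted footprints in a library. Per kb of coding sequence, the order was led by the clamp Pcna (3204), followed by Cdk1 (2587), the ribonucleotide reductase subunit Rrm2 (1713), Mcm6 (1527) and the checkpoint protein Mad2l1 (1476). The lowest levels per kb were those of the transcription factor Foxm1 (77.7), the polymerase catalytic subunit Pole (82.3) and Cenpe (98.2).

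GFP-TTP-AA was first compared with GFP-TTP, that is, the mutant with the wild-type protein. Of the 43 genes, 8 were lower in GFP-TTP-AA (Mki67, Tpx2, Aurka, Top2a, Lig1, Bub1, Bub1b and Cenpe) and 0 were higher. These 8 are 18.6% of the group, whereas among all 10103 kept genes 4.66% were lower and 5.59% were higher. The 43 genes had a median of -0.20 on the log2 scale, and 32 of them were below 0, against a median of 0.003 and 49.6% below 0 among all kept genes. Of the 8 genes, 7 act in mitosis and 1, Lig1, in replication, whereas the mitotic cyclins with Cdk1 and Foxm1 had 0 of 5 genes past the threshold and log2 fold changes of 0.003 to 0.25. The genes were taken as a group with earlier results of these data known, so that no test of the group as a whole was made. In bulk samples, fewer dividing cells and fewer footprints per dividing cell cannot be told apart. A footprint count also depends on both mRNA abundance and translation, which these values do not separate.

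**Figure D1:**
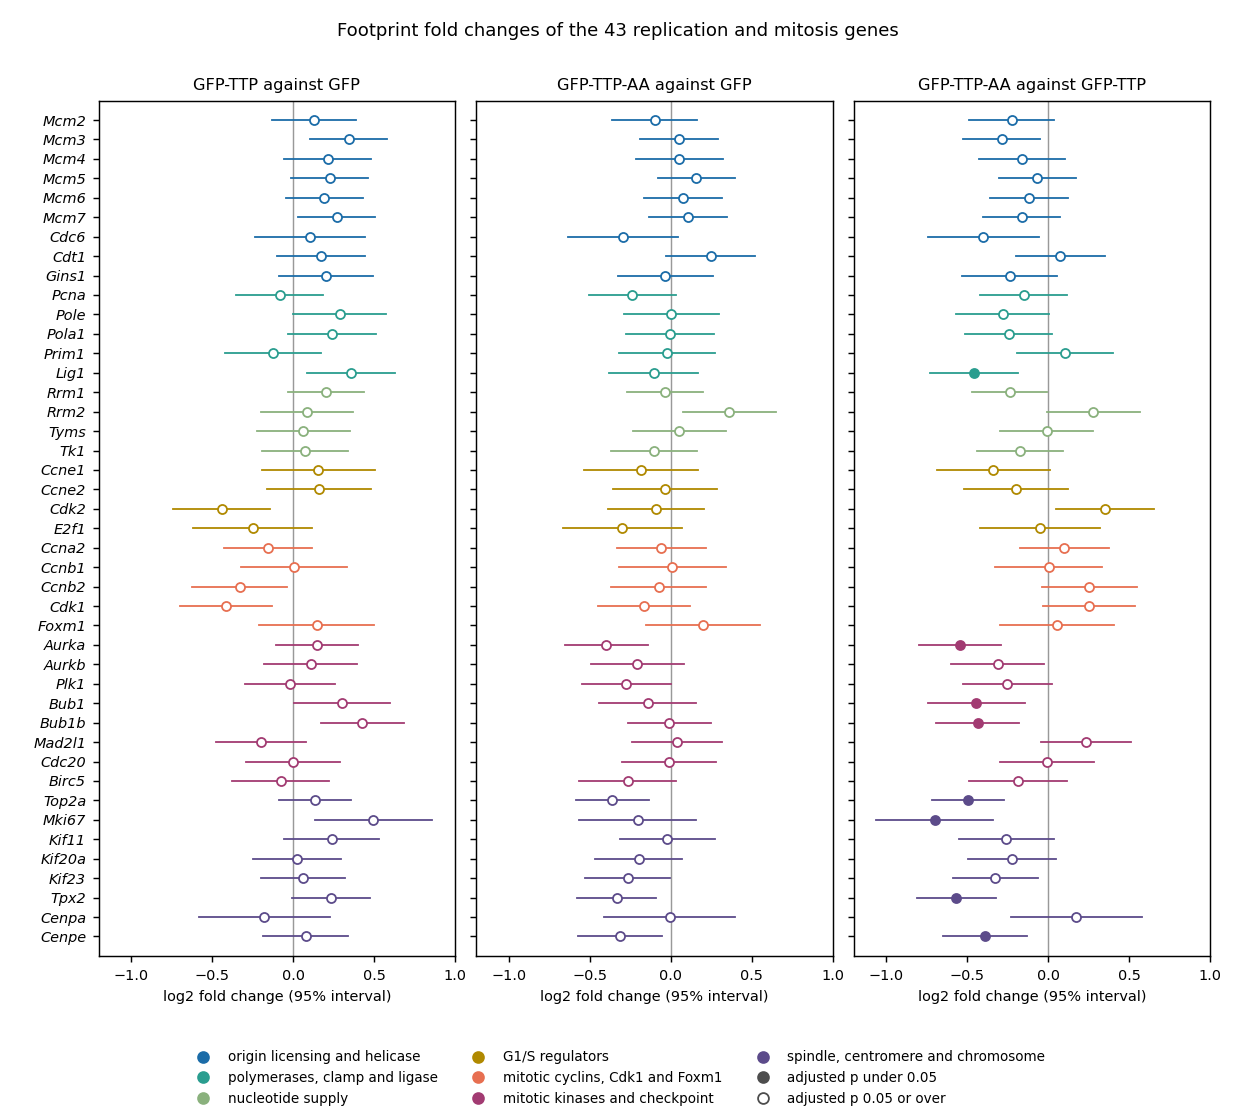
Log2 fold changes of the 43 genes in the 3 comparisons, with 95% intervals from the deposited standard errors, in colours by role; filled points have an adjusted p under 0.05. In the panel of GFP-TTP-AA against GFP-TTP, 8 points are filled, all of them left of 0, and in the other panels 0 points are filled.

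The spindle, centromere and chromosome genes had 4 of 8 members past the threshold and a median of -0.36 on the log2 scale. Mki67 (chr7:135689784-135716361, minus strand) encodes Ki-67, the coat protein of mitotic chromosomes that is used as a marker of cycling cells. Its levels were 1824, 1407 and 1013 in GFP, 2579, 1984 and 1425 in GFP-TTP, and 1589, 1218 and 878 in GFP-TTP-AA libraries 1, 2 and 3. The fitted level was highest in GFP-TTP. The log2 fold change of GFP-TTP-AA against GFP-TTP was -0.70 (SE 0.184, Wald test adjusted p = 0.00338), which was the lowest of the 43 genes.

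Tpx2 (chr2:152847964-152895321, plus strand) nucleates spindle microtubules and activates Aurora A. It was at 1879, 1741 and 1366 in GFP, at 2216, 2047 and 1603 in GFP-TTP and at 1497, 1378 and 1082 in GFP-TTP-AA libraries. The log2 fold change of GFP-TTP-AA against GFP-TTP was -0.57 (SE 0.124, Wald test adjusted p = 0.000206). Top2a (chr11:98992943-99024189, minus strand), the topoisomerase that untangles sister chromatids, was at 4053, 3127 and 3434 in GFP, at 4470, 3438 and 3766 in GFP-TTP and at 3171, 2430 and 2671 in GFP-TTP-AA libraries. Its log2 fold change in the same comparison was -0.50 (SE 0.114, Wald test adjusted p = 0.000502). Per kb of coding sequence Top2a was the highest of the spindle, centromere and chromosome genes (741).

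Cenpe (chr3:135212537-135273611, plus strand) is the kinesin that moves chromosomes to the spindle equator. Its levels were 912, 719 and 661 in GFP, 964, 759 and 695 in GFP-TTP and 736, 577 and 531 in GFP-TTP-AA libraries. Its log2 fold change was -0.39 (SE 0.134, Wald test adjusted p = 0.0377). The 4 other genes of these roles did not pass the threshold. The kinesins Kif23, Kif11 and Kif20a had log2 fold changes of -0.33, -0.26 and -0.22, and the centromeric histone Cenpa had 0.17 (SE 0.207).

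Of the mitotic kinases and checkpoint genes, 3 of 8 passed the threshold, with a median of -0.28. Aurka (chr2:172356190-172370535, minus strand) encodes Aurora A, the kinase of centrosome maturation and spindle poles. It was at 1672, 1398 and 1389 in GFP, at 1857, 1548 and 1534 in GFP-TTP and at 1275, 1059 and 1053 in GFP-TTP-AA libraries. Its fitted level was lowest in GFP-TTP-AA, and the log2 fold change against GFP-TTP was -0.54 (SE 0.130, Wald test adjusted p = 0.000944). Bub1 (chr2:127801122-127831865, minus strand) and Bub1b (chr2:118598211-118641591, plus strand) encode kinetochore proteins of the spindle assembly checkpoint, Bub1 and BubR1.

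Bub1 was at 486, 328 and 433 in GFP, at 601, 405 and 532 in GFP-TTP and at 442, 297 and 391 in GFP-TTP-AA libraries. The log2 fold change between the mutant and the wild type was -0.45 (SE 0.152, Wald test adjusted p = 0.038). Bub1b was at 1185, 1098 and 965 in GFP, at 1599, 1476 and 1295 in GFP-TTP and at 1183, 1089 and 958 in GFP-TTP-AA libraries. Its fitted level was highest in GFP-TTP and near-equal in the other groups. The log2 fold change of GFP-TTP-AA against GFP-TTP was -0.44 (SE 0.131, Wald test adjusted p = 0.0138).

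The other 5 genes of these roles ranged from -0.31 for the kinase Aurkb to 0.23 for Mad2l1, the checkpoint protein that holds back Cdc20. Mad2l1 (chr6:66535390-66547220, plus strand) was at 951, 984 and 884 in GFP, at 832, 858 and 769 in GFP-TTP and at 980, 1007 and 906 in GFP-TTP-AA libraries. Its fitted level was lowest in GFP-TTP, but the difference did not pass the threshold (SE 0.142, 95% interval -0.04 to 0.51, Wald test adjusted p = 0.334). The kinase Plk1 had -0.25, the survivin gene Birc5 had -0.19 and Cdc20, an activator of the anaphase-promoting complex, had -0.01.

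**Figure D2:**
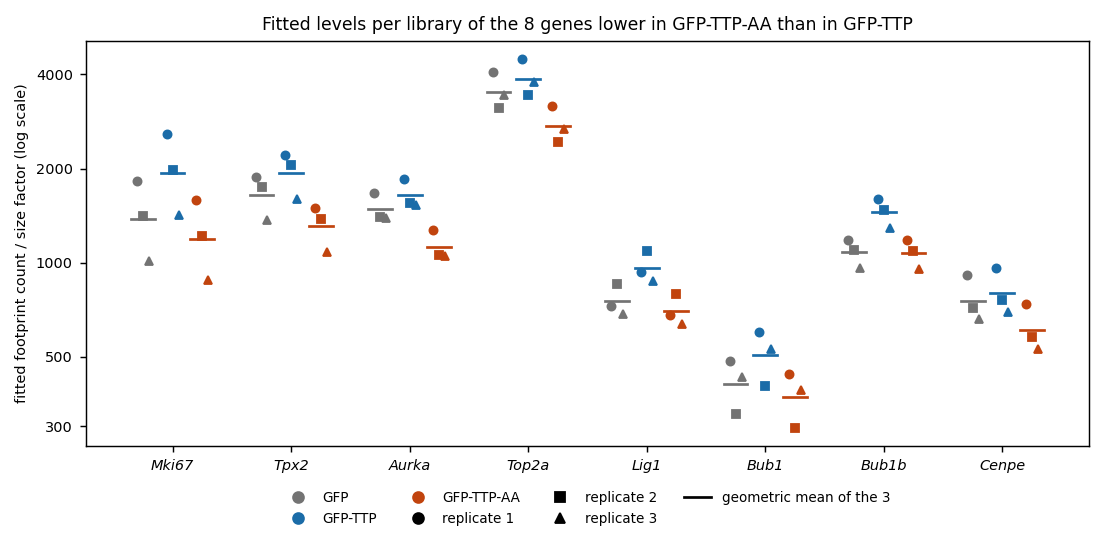
Fitted levels (footprint count over size factor, log axis) in each of the 9 libraries for the 8 genes with lower levels in GFP-TTP-AA than in GFP-TTP, with bars at the geometric mean of each group of 3. In each gene the 3 orange GFP-TTP-AA points lie under the blue GFP-TTP points of the same replicate number. This order follows from the choice of the genes and from the fitted model.

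Among the polymerases, clamp and ligase, Lig1 was the 1 gene of 5 past the threshold. Lig1 (chr7:13277283-13311433, plus strand) seals the nicks between Okazaki fragments. Its levels were 730, 856 and 685 in GFP, 936, 1094 and 873 in GFP-TTP and 681, 793 and 635 in GFP-TTP-AA libraries. The log2 fold change was -0.46 (SE 0.139, Wald test adjusted p = 0.014). Pcna (chr2:132249162-132253314, minus strand) was at 3038, 2740 and 2308 in GFP, at 2874, 2584 and 2172 in GFP-TTP and at 2588, 2319 and 1955 in GFP-TTP-AA libraries. Its difference between the mutant and the wild type was -0.15 on the log2 scale (SE 0.138, 95% interval -0.42 to 0.12). The polymerase subunits Pole and Pola1 had -0.28 and -0.25, and the primase subunit Prim1 had 0.10.

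None of the 9 origin licensing and helicase genes passed the threshold in this comparison, with a median of -0.16. By the same Wald test, 2 of these 9 (22.2%) had an unadjusted p under 0.05, near the 22.1% of all kept genes. Of the whole group, 14 of 43 genes (32.6%) had one. The helicase subunits Mcm2 to Mcm7 had log2 fold changes between -0.29 for Mcm3 and -0.07 for Mcm5. Mcm6 (chr1:128331590-128359664, minus strand) was at 3845, 3305 and 3436 in GFP, at 4410, 3779 and 3919 in GFP-TTP and at 4066, 3472 and 3613 in GFP-TTP-AA libraries. Its log2 fold change was -0.12 (SE 0.122, 95% interval -0.36 to 0.12). The origin licensing factors Cdc6 and Cdt1 had -0.40 (SE 0.174, Wald test adjusted p = 0.133) and 0.07, and the helicase component Gins1 had -0.24.

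The genes of nucleotide supply and the G1/S regulators likewise had 0 of 4 members each past the threshold. In each, 1 gene of 4 (25%) had an unadjusted p under 0.05, beside 22.1% of all kept genes. Rrm2 (chr12:24708241-24714146, plus strand), the small subunit of the enzyme that makes deoxyribonucleotides, was at 1923, 1658 and 1810 in GFP, at 2046, 1759 and 1916 in GFP-TTP and at 2480, 2126 and 2323 in GFP-TTP-AA libraries. Its fitted level was highest in GFP-TTP-AA, yet the log2 fold change of 0.28 did not pass the threshold (SE 0.146, 95% interval -0.01 to 0.56, Wald test adjusted p = 0.251). The large subunit Rrm1 had -0.24 (SE 0.119), thymidine kinase Tk1 had -0.17 and thymidylate synthase Tyms had -0.01.

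Cdk2 (chr10:128697939-128705031, minus strand), the kinase of cyclins E and A, was at 459, 477 and 446 in GFP, at 339, 352 and 328 in GFP-TTP and at 433, 447 and 418 in GFP-TTP-AA libraries. The fitted level was lowest in GFP-TTP, and the log2 fold change of 0.35 was the highest of the 43 genes in this comparison (SE 0.153, 95% interval 0.05 to 0.65, Wald test adjusted p = 0.136). Its partners Ccne1 and Ccne2 had -0.34 and -0.20, and the factor E2f1 had -0.05.

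Cdk1 (chr10:69335146-69352938, minus strand), the kinase that starts mitosis, had a similar order, with 2671, 2518 and 2664 in GFP, 2008, 1887 and 1992 in GFP-TTP and 2391, 2240 and 2372 in GFP-TTP-AA libraries. Again the fitted level was lowest in GFP-TTP, and the log2 fold change of 0.25 did not pass the threshold (SE 0.145, 95% interval -0.03 to 0.53, Wald test adjusted p = 0.303). The cyclins Ccnb2, Ccna2 and Ccnb1 had 0.25, 0.10 and 0.003, and Foxm1, a transcription factor of mitotic genes, had 0.05. Among the 35 genes that did not pass, Kif23 was nearest to the threshold (Wald test adjusted p = 0.106), followed by Mcm3 (0.121).

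Both constructs were then compared with GFP alone. In GFP-TTP against GFP, 0 of 43 genes were called, whereas 2.10% of the 9938 kept genes with an SE were called in either direction. At an unadjusted p under 0.05 these were 9 of 43 genes (20.9%) and 11.3% of all genes tested, by the same Wald test. The 43 genes had a median of 0.13 on the log2 scale, with 31 of them above 0 and 12 (27.9%) below it. All genes tested had a median of 0.003, with 49.3% below 0. All 9 origin licensing and helicase genes were above 0, between 0.11 for Cdc6 and 0.34 for Mcm3. Bub1b was nearest to the threshold, with 0.43 (SE 0.131, 95% interval 0.17 to 0.68, Wald test adjusted p = 0.0516). Mki67 had the highest value, 0.50 (SE 0.184, adjusted p = 0.176), and Cdk2 and Cdk1 had the lowest, -0.44 (SE 0.153, adjusted p = 0.119) and -0.42 (SE 0.145, adjusted p = 0.121), in the same Wald test.

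In GFP-TTP-AA against GFP, again 0 of 43 genes were called, against 3.02% of the 10103 kept genes. At an unadjusted p under 0.05 these were 6 of 43 genes (14.0%) and 14.2% of all genes tested. The median was -0.06, and 31 genes (72.1%) were below 0, against a median of 0.004 and 49.2% below 0 among all kept genes. Top2a had -0.36 (SE 0.114, 95% interval -0.58 to -0.14, Wald test adjusted p = 0.0516) and Aurka had -0.40 (SE 0.130, 95% interval -0.65 to -0.14, Wald test adjusted p = 0.0624). Tpx2 and Cenpe followed with -0.33 and -0.31. All 8 spindle, centromere and chromosome genes were below 0, with a median of -0.24. Rrm2 was the highest, with 0.36 (SE 0.146, adjusted p = 0.174). The 3 comparisons share libraries, so that the values of the 8 genes against GFP and against GFP-TTP are not independent. Of these 8 genes, Bub1b, Mki67, Lig1 and Bub1 stood further from GFP in GFP-TTP cells (0.43, 0.50, 0.35 and 0.30) than in GFP-TTP-AA cells (-0.01, -0.20, -0.11 and -0.14). Aurka, Top2a, Cenpe and Tpx2 stood further from it in GFP-TTP-AA cells (-0.40, -0.36, -0.31 and -0.33) than in GFP-TTP cells (0.15, 0.14, 0.08 and 0.23). Whether these genes differ from each other in this respect was not tested.

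Other genes of the same processes were taken from 2 lists. Of 71 other mitosis genes, 10 (14.1%) were lower and 0 higher in GFP-TTP-AA than in GFP-TTP, with a median of -0.14 on the log2 scale, and of 59 other replication genes, 7 (11.9%) were lower and 0 higher, also with a median of -0.14. Among all kept genes 4.66% were lower and 5.59% higher, and no test of the lists was made. The largest falls were those of Casc5, a kinetochore scaffold, with -0.996 (SE 0.193, Wald test adjusted p = 1.76e-05), and of Hmmr, a spindle and hyaluronan-binding protein, with -0.91 (SE 0.144, Wald test adjusted p = 3.79e-08). Casc5 was at 337, 230 and 203 in GFP, at 442, 301 and 265 in GFP-TTP and at 222, 151 and 133 in GFP-TTP-AA libraries. Hmmr was at 790, 698 and 662 in GFP, at 1005, 885 and 838 in GFP-TTP and at 536, 470 and 447 in GFP-TTP-AA libraries. Of the replication genes, the single-strand binding protein Rpa1 (-0.58) and the maintenance methyltransferase Dnmt1 (-0.53) had the largest falls and were named after their values were seen.

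Against GFP, 2 of the 59 replication genes (3.39%) and 1 of the 71 mitosis genes (1.41%) were called in GFP-TTP cells, beside 2.10% of all genes tested. The flap endonuclease Fen1 (0.66, SE 0.198, Wald test adjusted p = 0.0445), the chromatin remodeler Hells (0.53, SE 0.152, Wald test adjusted p = 0.0297) and, named after its value was seen, the Aurora B partner Incenp (0.45, SE 0.139, Wald test adjusted p = 0.0499) were higher, and 0 were lower. All 3 lie on chromosome 19, whose 364 kept genes had a log2 median of 0.18 in this comparison. In GFP-TTP-AA cells 1 of the 59 (1.69%) and 3 of the 71 (4.23%) were called, beside 3.02% of all genes tested. Fen1 was higher (0.73, Wald test adjusted p = 0.013), and Sgol2 (-0.60, Wald test adjusted p = 0.0198), Hmmr (-0.57, Wald test adjusted p = 0.00671) and, named after its value was seen, Prc1 (-0.47, Wald test adjusted p = 0.0295) were lower. Sgol2 protects centromeric cohesion, and Prc1 bundles the microtubules of the central spindle.

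Coding length moved with the fold change. In GFP-TTP-AA against GFP-TTP, the 8 genes that fell had a median coding length of 3166.5 nt and the other 35 genes one of 1290 nt. Spearman's rho between coding length and log2 fold change was -0.59 across the 43 genes and -0.25 across 9971 kept genes, given as descriptions, since all genes share the same libraries. When the kept genes were split into 10 bins of near-equal size by coding length, the bin of the shortest had a median of 0.14 and the bin of the longest one of -0.16. In GFP-TTP against GFP rho was 0.63 across the 43 genes and 0.15 across all kept genes, and in GFP-TTP-AA against GFP it was -0.05 and -0.18. With the median of the same length bin subtracted from each gene, 5 of the 8 genes were past the threshold, namely Mki67, Tpx2, Aurka, Top2a and Lig1. Bub1 (-0.38, Wald test adjusted p = 0.100), Bub1b (-0.37, adjusted p = 0.0515) and Cenpe (-0.23, adjusted p = 0.321) were not. The median of the 43 genes was then -0.16, and the share of all genes that were lower was 3.91%. The part of coding length in the result was not tested further.

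**Figure D3:**
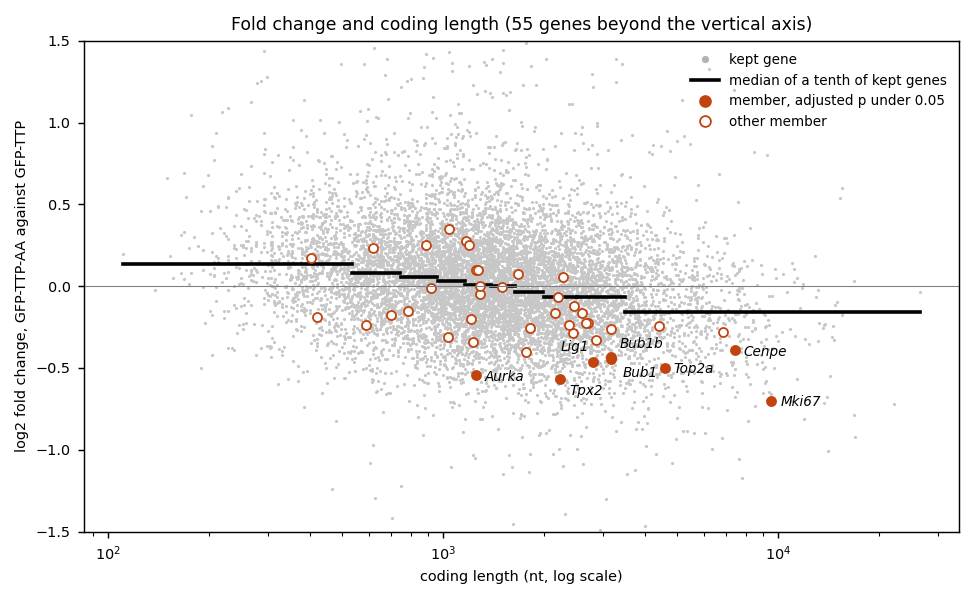
Coding length (nt, log axis) against the log2 fold change of GFP-TTP-AA over GFP-TTP for the kept genes (grey), the 43 genes (orange, filled where the adjusted p is under 0.05) and the medians of 10 length bins of the kept genes (black). The black medians fall from 0.14 to -0.16, and the 8 filled points lie under them.

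Chromosomes also differed between the lines. Aurka, Bub1, Bub1b and Tpx2 lie on chromosome 2, whose 811 kept genes had a log2 median of -0.06 in GFP-TTP-AA against GFP-TTP. The median was -0.11 for chromosome 11, which holds Top2a, and 0.17 for chromosome 10, which holds Cdk1, Cdk2 and Prim1. With the chromosome median subtracted, 7 of the 8 genes were past the threshold and Bub1 was not (-0.39, Wald test adjusted p = 0.0953). With both the chromosome and the coding-length medians subtracted, 4 were past it, namely Mki67 (-0.56), Tpx2 (-0.44), Aurka (-0.50) and Lig1 (-0.41), whereas Top2a had -0.23 (Wald test adjusted p = 0.233). Among the 31 kept genes within 5 Mb of Aurka the median was -0.18, and for the other 7 genes that fell it ranged from -0.10 to 0.04.

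Macrophage markers moved with the group as well. Of the 8 markers with a mean of at least 10, 3 were lower in GFP-TTP than in GFP (Emr1, Lyz2 and Fcgr1), 1 was higher in GFP-TTP-AA than in GFP (Emr1), and 4 were higher in GFP-TTP-AA than in GFP-TTP (Emr1, Lyz2, Fcgr1 and Spi1). Emr1, which encodes the surface antigen F4/80, had a log2 fold change of 1.22 (SE 0.16, Wald test adjusted p = 5.34e-12) in the last comparison, and the lysozyme gene Lyz2 had 0.63 (SE 0.12, Wald test adjusted p = 8.66e-06). The direction was opposite to that of the 8 genes that fell, and the part of this difference in their result was not tested.

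The 43 genes also differed by replicate number. In replicate 3, 40 of the 43 genes were lower than in replicate 1, with a median difference of -0.24 in log2 levels, against 51% and -0.006 among the kept genes. In replicate 2, 37 of the 43 genes were lower than in replicate 1, with a median of -0.22. Between replicates 3 and 2, the median was -0.05, so that replicate 1 stood apart from both. Mki67 had the largest difference between replicates 3 and 1 (-0.85), followed by Cdc6 (-0.67), Mcm2 (-0.60) and Plk1 (-0.54). Birc5 (0.31), Ccna2 (0.11) and Ccnb2 (0.10) were the 3 genes that were higher in replicate 3 than in replicate 1. The summed level of the 43 genes was 55702, 48194 and 46932 in GFP, 60852, 52353 and 50530 in GFP-TTP and 53196, 45760 and 44753 in GFP-TTP-AA libraries. These differences have no standard error in the tables, and they are the same in each group because the values are fitted. The authors' model has a term for library date, but the labels give no date. Whether the replicate numbers are the library dates is therefore not stated.

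**Figure D4:**
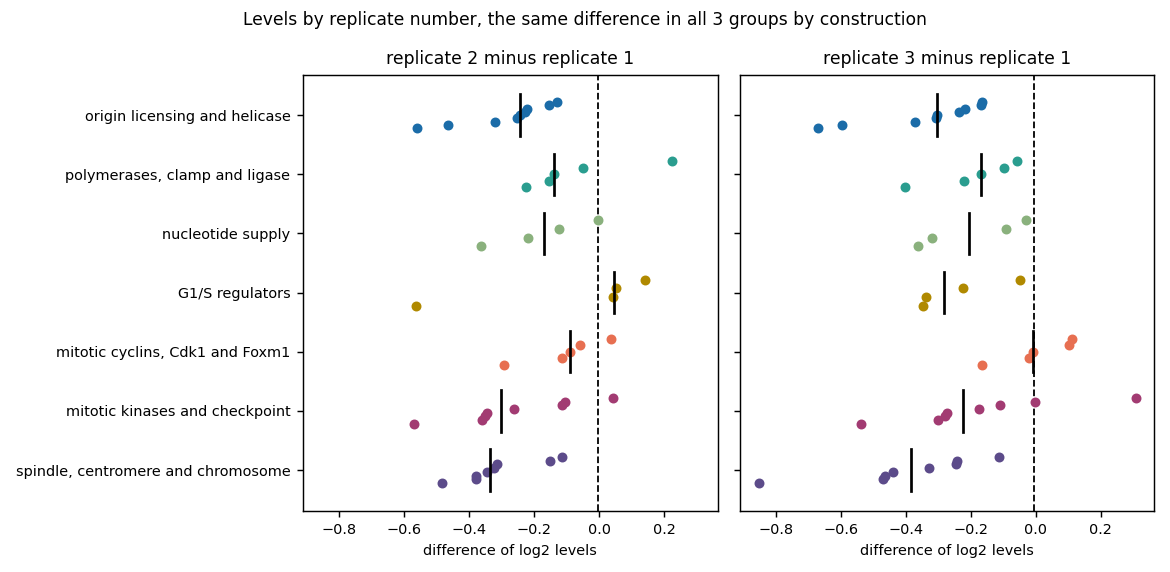
Differences in log2 level between replicate numbers for the 43 genes by role (points), with the median of each role (solid bars) and of all kept genes (dashed lines, -0.004 and -0.006). Most points lie left of the dashed lines in both panels, and the mitotic cyclins with Cdk1 and Foxm1 lie nearest to them in the panel of replicate 3 (median -0.009).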

How the data were processed

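RiboSeq libraries of TTP-deficient immortalized BMDMs (3 per line) were analysed. Groups and replicate numbers came from the labels. The authors depleted rRNA, aligned footprints to mm10 with TopHat, allowing up to 2 alignments per read, and modelled the gene counts in DESeq2 1.6.3 with terms for library date and condition. The processing notes name Trim Galore and HTSeq. With 2 alignments allowed, paralogs and pseudogenes may share reads.

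The deposited table named as normalized counts holds 16932 lines, of which 11 repeat a gene. It is a signal, the authors' fitted count per gene and library, since after group, replicate-number and library terms its log2 values left a residual SD of 1.64e-15. The authors' comparison tables hold log2 fold changes and standard errors, a Wald statistic, p-values and a mean signal. The standard errors on the log2 scale were taken from these deposited tables, and the authors' fold changes, statistics and p-values were not used.

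Size factors (median of ratios to gene geometric means, over genes with a mean of at least 10) were 0.415 to 2.12. Genes with a mean of at least 10 after division were kept. Log2 fold changes were differences of mean log2 levels. They were divided by the standard error, tested two-sided against the normal distribution (Wald test) and adjusted by the Benjamini-Hochberg method over kept genes, with a threshold of 0.05. This step was run on simulated fold changes with noise drawn from the same standard errors. That checks the calculation and cannot show whether the standard errors are right. Depth enters through the standard errors. The p-values rest on the spread between libraries that remains after the model's terms for library date and condition, which may be technical. Alternatives varied the filter, adjustment, scaling, pseudocount, chromosome and coding length.

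The 43 genes, the 2 pathway lists and the marker lists were chosen with earlier results of these data known. Values per library were given for genes past the threshold in any comparison and for the gene with the highest level per coding kb in each of 7 roles. Of the pathway lists, the 2 genes with the largest change in each direction and comparison were named, and of the rest those described as named after their values were seen. Coding lengths, 3′UTRs and positions came from GENCODE vM21 (GRCm38, longest coding transcript), and promoters from RefSeq (GRCm38.p6). Python 3.11 with numpy and scipy was used.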

Additional observations from a re-analysis of the deposited data

How the results depend on the processing

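The 8 genes that fell in GFP-TTP-AA against GFP-TTP stayed below 0 under all 12 alternatives. The changes of filter, the adjustment over the 3 comparisons together and the replicate block left the fold changes as they were. The direction could therefore not change in these. Mki67, Tpx2, Aurka and Lig1 kept an adjusted p under 0.05 in all 12, each with the same deposited standard errors. Without a filter, with a filter at a mean of 50, with centring on the median, with equal sums, with the trimmed mean of M values and with a pseudocount of 1, the same 8 genes were called. With an adjustment over the 3 comparisons together, or with a pseudocount of 10, 6 were called, without Bub1 and Cenpe, and with the chromosome median subtracted 7, without Bub1. With the medians of coding-length bins subtracted, chosen after seeing the data, 5 were called, and with both the chromosome and coding-length medians subtracted 4. Among all genes 3.91% and 3.11% were then called lower. Against GFP, where 0 of the 43 genes were called, the adjustment over the 3 comparisons together called 1 (Bub1b, higher in GFP-TTP) and 2 (Top2a and Aurka, lower in GFP-TTP-AA), and centring or equal sums called 1 (Top2a). Bub1b in GFP-TTP-AA against GFP, at -0.01, turned to 0.0197 with the chromosome median, to 0.0183 with the coding-length medians and to 0.0553 with both subtracted. Cenpe in GFP-TTP against GFP, at 0.08, turned to -0.00353 with the coding-length medians subtracted. A pseudocount of 10 brought the genes called in GFP-TTP-AA against GFP from 305 to 197. Where the value depends on the setting, the cause was not tested. With the replicate block, the mean of the same-number ratios, the values were identical (a median of -0.20 and 8 genes called in GFP-TTP-AA against GFP-TTP), because the fitted values already contain the replicate number. For the same reason the correlation of same-number libraries could not be checked, and the fits that leave out 1 replicate were not run, since the remaining values give the same fold change. No alternative could show the residual spread between libraries, which is known only through the deposited standard errors.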
